A study of Mus musculus with 9 samples.

Results

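The 5 genes of NF-κB subunits and the 5 genes of IκB proteins were followed through the RNA sequencing of LPS-stimulated mouse macrophages. The 10 genes were taken by symbol from the deposited library table, which held 25494 genes, and all 10 were listed in each of the 3 comparison tables. Nfkb1, Nfkb2, Rel, Rela and Relb encode the subunits. Nfkbia, Nfkbib and Nfkbie encode IκBα, IκBβ and IκBε, which hold NF-κB in the cytoplasm, and Nfkbid and Nfkbiz encode IκBNS and IκBζ, which act in the nucleus.

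All cells came from TTP-deficient bone marrow, that is, from macrophages without tristetraprolin (TTP, gene Zfp36), an RNA-binding protein that marks mRNAs with AU-rich 3'UTRs for decay. They had been immortalized with hcmyc and hRasG12V and selected for the macrophage surface antigens encoded by Itgam and Adgre1. A tet-inducible vector then supplied GFP alone in the group GFP, wild-type TTP fused to GFP in the group TTP, and in the group TTP-AA the same fusion with the MK2 phosphorylation sites mutated from serine to alanine. Every library was made after doxycycline for 6 h and LPS for 1 h, each at 1 µg/ml, with 3 libraries per group, described as biological replicates, and 9 in all. Only the coding sequence of TTP was in the vectors. Each group was a transduced line sorted for GFP, and 0 of the libraries were made without LPS or without doxycycline, so a difference between lines and an effect of the transgene cannot be told apart.

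NF-κB is a family of dimeric transcription factors that wait in the cytoplasm of resting macrophages, bound by IκB proteins. LPS acts through TLR4 and the IKK complex, which phosphorylates the IκB proteins and so marks them for degradation, and freed dimers enter the nucleus. Many genes of the family, above all Nfkbia, are themselves transcribed by NF-κB, so that the system restores its own inhibitor, while the nuclear IκB proteins shape which target genes are read.

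Sequences in the 3'UTRs bear on the comparison, because TTP binds AU-rich elements. The 7-base motif TATTTAT was searched on the transcript strand of the GENCODE transcript with the longest coding sequence. It occurred in the 3'UTRs of Rel and Nfkbia and in none of the other 8, whereas 27.4% of the 11420 listed genes with an annotated 3'UTR held it. A match does not measure binding, and its absence does not mark a gene as unbound. In its crosslinking experiments the study listed both Nfkbia and Nfkbiz, which lacks the 7-base motif, among the top 3'UTR targets of TTP. The 4 sites are shown 5′ to 3′ with the motif in capitals, since TTP is known to prefer these letters.
Nfkbia, chr12:55489608-55489636, minus strand, GRCm38: ggaccacgtttTATTTATtgtgcttttga
Nfkbia, chr12:55489419-55489447, minus strand, GRCm38: tctaagatgtaTATTTATtaaacagattt
Rel, chr11:23739876-23739904, minus strand, GRCm38: taaatagtagcTATTTATtagaaaagggg
Rel, chr11:23737834-23737862, minus strand, GRCm38: ctcccagacttTATTTATtttttttagct

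The first Nfkbia site lies 296 bases and the second 485 bases into a 3'UTR of 512 bases. In Rel the sites lie 2371 and 4413 bases into a 3'UTR of 5418 bases, by far the longest of the family. The first site of Nfkbia and the second of Rel also form the 9-base motif TTATTTATT, which 7.11% of the listed genes held. The shorter ATTTA, contained in each TATTTAT, was found 12 times in Rel, 4 times each in Nfkb1 and Nfkbiz, 2 times in Nfkbia and 1 time each in Nfkb2 and Nfkbid. It was absent from the 3'UTR windows of Rela, Relb, Nfkbib and Nfkbie, and 66.1% of the listed genes held it. The share of A and U ran from 44.3% in the 3'UTR of Nfkbib to 64.1% in that of Nfkbiz.

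**Figure D1:**
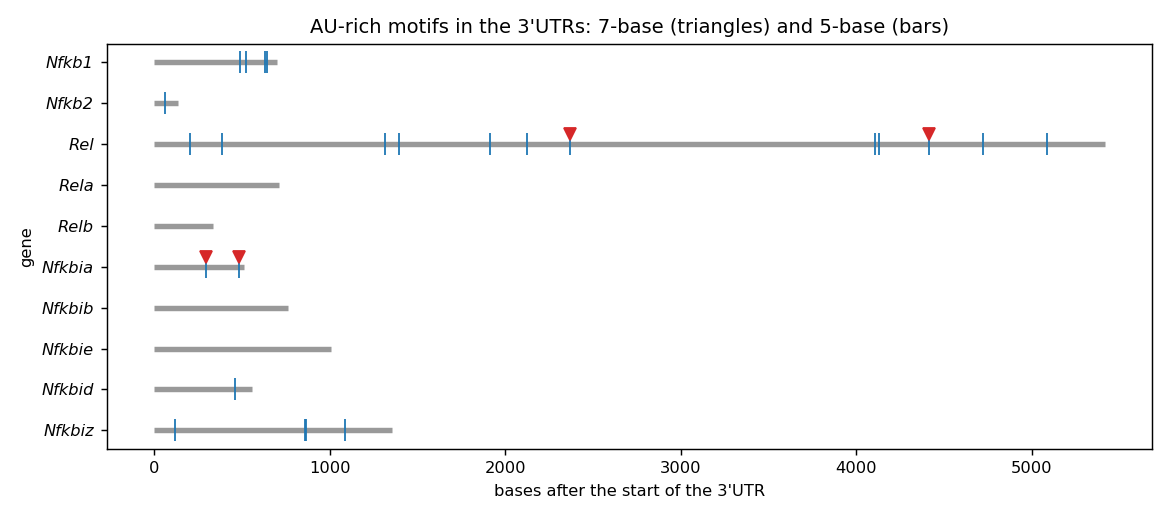
Position of AU-rich motifs along the 3'UTR of each gene, in bases after its start. Grey bars are the 3'UTRs, red triangles the 7-base motif and blue bars the 5-base motif; only Rel and Nfkbia carry triangles, and the 3'UTR of Rel, at 5418 bases, is the longest.

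Promoters were searched for the κB consensus on both strands, in RefSeq windows from 250 bases before to 50 bases after each start site (GRCm38.p6). Of all 32851 windows, 8.46% held a match, which is a share of windows and not of genes. For the 7 genes with a window, Nfkb2 (in 3 of 3 windows), Rel, Nfkbia, Nfkbie and Nfkbid (in 1 of 3 windows) had at least 1 match and Rela and Nfkbib had none. The nearest match upstream of a start site is shown for each, with the consensus in capitals, because NF-κB is known to transcribe genes of its own family.
Nfkb2, chr19:46304718-46304743, plus strand, GRCm38.p6: ggccgaaaGGGGCTTTCCcggctgga
Rel, chr11:23771043-23771068, minus strand, GRCm38.p6: aagcagcgGGAAATCCCCccccctcc
Nfkbia, chr12:55492659-55492684, minus strand, GRCm38.p6: actggcttGGAAATTCCCcgcgcctg
Nfkbie, chr17:45555586-45555611, plus strand, GRCm38.p6: agcaaacaGGGGGATTCCggaggggc
Nfkbid, chr7:30422217-30422242, plus strand, GRCm38.p6: gccgaacaGGAATTCCCCgtgcgcgg

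These matches start 11 bases before the start site in Nfkb2, 91 in Rel, 29 in Nfkbia, 106 in Nfkbie and 181 in Nfkbid. Those of Rel, Nfkbia and Nfkbid read as the consensus on the opposite strand. A match describes the letters only, and binding was not measured in these libraries.

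Before the members, the gene targeted in these cells was examined. The fitted levels of Zfp36 were 1741, 1423 and 894 in GFP replicates 1 to 3, 1794, 1461 and 921 in TTP and 2796, 2278 and 1437 in TTP-AA. The libraries labelled TTP therefore did not stand apart from GFP in this gene (log2 fold change 0.04 ± 0.17, SE), and TTP-AA was higher than TTP by 0.65 ± 0.17 (DESeq2 adjusted p 0.000902). Reads from the disrupted gene and from the transgene share this symbol, so the label TTP could not be checked here. Of 10 macrophage markers 9 were in the library table, each with a fitted mean of at least 10, among them Lyz2 at 585734, Cd68 at 9794 and Itgam (CD11b) at 9312, and Adgre1 was not analysed here. The summed level of the 9, most of it Lyz2, ranged from 571597 to 788386 in GFP, from 482711 to 660413 in TTP and from 643962 to 883881 in TTP-AA. Lyz2, Spi1, Fcgr1 and Cd36 rose in TTP-AA against TTP by 0.40 to 0.92 on the log2 scale. Itgam, Csf1r, Cd68, Cd14 and Mertk had DESeq2 adjusted p from 0.107 to 0.536 in that comparison. Of all listed genes 28.6% had an adjusted p under 0.05 there. The neutrophil markers in the table summed to 114 to 181, 116 to 184 and 191 to 304 in the same order, nearly all of it S100a8, and the T cell markers to 61.2 to 67.1, 93.1 to 103 and 84.5 to 93.5. The dendritic cell markers summed to 298 to 353, 290 to 342 and 237 to 284, and those of B cells, fibroblasts and erythroid cells to under 3 in every library. Whether these shifts play a part in the values of the NF-κB genes was not tested. In bulk RNA, fewer cells with a transcript and less of it per cell cannot be told apart.

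The fitted level below is the deposited library value divided by a library factor, which ran from 0.61 to 2.84. It is a value of the authors' model and not a measured count, so that the ratio of 2 groups is the same at each replicate number and the spread between replicates of a group reflects the replicate number alone. The sums of fitted means, which stand in for depth, ran from 21482954 to 102613526 per library. Errors of changes are the standard errors (SE) deposited with them, from the fit to 3 libraries per group, and intervals are at 95%. The deposited log2 changes behave as shrunken toward 0, so their size may be understated.

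The family spanned a wide range of abundance. In mean normalized count per kilobase of transcript, Nfkbia was the highest at 18197, followed by Nfkbiz at 4545 and Nfkbid at 1557. Nfkb1 had 1284, Nfkb2 had 729, Relb had 662, Nfkbie had 659, Rela had 588 and Nfkbib had 364, and Rel was the lowest at 127. Relb and Nfkbie, neighbours in this order, were closer to each other than either was to itself across replicate numbers. When the union of all exons replaced the transcript length, the first 3 and the last 2 kept their ranks and the 5 in between changed places, Nfkb1 going to rank 7 at 438 and Rela to rank 4 at 520. The order from Nfkb1 to Rela was therefore not settled by these data. Per kilobase, the 5 IκB genes together exceeded the 5 subunit genes 4.8-fold to 10.2-fold in the 9 libraries, and the fold was lowest in replicate 3 of each group. Most of the IκB sum was Nfkbia and Nfkbiz.

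**Figure D2:**
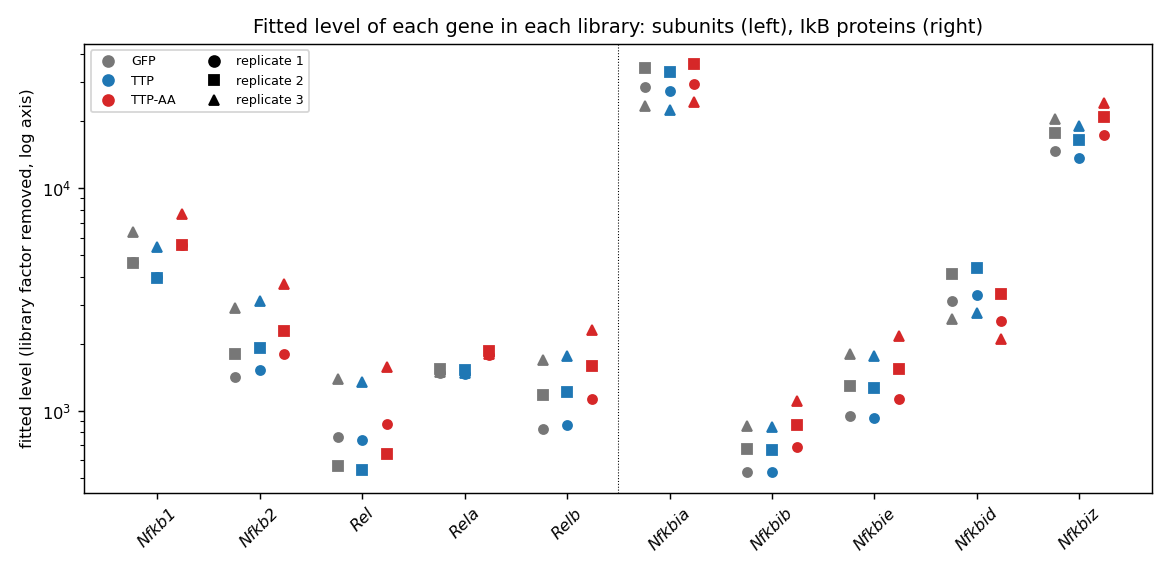
Fitted level of each gene (log axis) in each of the 9 libraries, grey for GFP, blue for TTP and red for TTP-AA, with circles, squares and triangles for replicates 1, 2 and 3. Red lies above blue at equal symbols for every gene except Nfkbid, while the symbols of a group spread further than the colours for most genes and Rela stays within 1469 to 1859.

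TTP was compared with GFP to ask whether wild-type TTP alters the RNA of the family after LPS. No subunit and no IκB gene passed the threshold, where 9.16% of the 11977 listed genes did (deposited DESeq2 test, adjusted p under 0.05). At an unadjusted p under 0.05 there was 1, Nfkb1. It ranked 1907 by unadjusted p, so at least 1907 of the 11977 listed genes were under 0.05. The median log2 fold change was -0.01 for the subunits and -0.03 for the IκB genes, against 0.011 for all listed genes, and 3 of 10 were above 0, against 52.3% of all listed genes. The estimates ran from -0.22 in Nfkb1 to 0.10 in Nfkb2.

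Nfkb1 (ENSMUSG00000028163, chromosome 3, 135584655 to 135691547) encodes the precursor of the p50 subunit. Its fitted levels were 4642, 4627 and 6343 in GFP replicates 1 to 3, 3985, 3960 and 5445 in TTP, and 5579, 5545 and 7630 in TTP-AA. At each replicate number TTP was the lowest and TTP-AA the highest, although the groups overlapped across numbers. Against GFP the change in TTP was -0.22 ± 0.10 (DESeq2 adjusted p 0.152), and the median of the 575 listed genes of chromosome 3 was -0.20 in that comparison. Less that median, the estimate was -0.02. How far the shift of the chromosome takes part in the value of Nfkb1 was not tested further.

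The intervals show the spread around each estimate for wild-type TTP. Because the changes behave as shrunken toward 0, the intervals do not bound what could have been detected. For Nfkbia, whose mRNA carries the 7-base motif, the estimate was -0.06 with an interval from -0.28 to 0.16. For Rel, the other carrier, it was -0.05 with an interval from -0.40 to 0.30. Rela, which encodes the transactivating subunit p65, was at -0.01 (interval -0.26 to 0.24), on a chromosome 19 whose 427 listed genes had a median of 0.20. The widest interval was that of Nfkbiz, from -0.57 to 0.34.

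The form that MK2 cannot phosphorylate was set against GFP with the same question. All 5 subunits and 4 of 5 IκB genes had estimates above 0, against 50.3% of the 13205 listed genes. Nfkb1 and Nfkbib rose and passed the threshold, which is 2 of 10 where 17.9% of all listed genes were called and 9.11% were called higher in TTP-AA. The share of members called was thus close to that of all genes. The medians were 0.29 for the subunits and 0.24 for the IκB genes, against 0.001 for all listed genes. Nfkb1 was higher by 0.28 ± 0.10 (DESeq2 adjusted p 0.0322) and Nfkbib by 0.38 ± 0.14 (adjusted p 0.0368). At an unadjusted p under 0.05 there were 5, the other 3 being Nfkb2 (0.36 ± 0.17), Rela (0.29 ± 0.13) and Relb (0.46 ± 0.23), with adjusted p of 0.123, 0.1 and 0.165. Relb, the last of the 5, ranked 3793 by unadjusted p, so at least 3793 of the 13205 listed genes were under 0.05. Neither call held with the Wald scores scaled by their central spread of 1.77 (adjusted p 0.735 for Nfkb1 and 0.745 for Nfkbib), and that of Nfkbib was also lost with chromosome medians removed (adjusted p 0.0688) and with a trend on GC content and length removed (adjusted p 0.0543). Of all listed genes these settings called 1.49%, 16.1% and 17.6%. The scaling counts the spread of the middle of all scores as noise. It therefore cannot tell widespread change between the lines from understated errors.

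TTP-AA and TTP were compared to ask what the mutated phosphorylation sites change. Nfkb1 and Nfkbib rose and Nfkbid fell, so 3 of 10 members were called where 28.6% of the 13205 listed genes were. In TTP-AA 14.0% of all genes were called higher, against 2 of 10 here, and 14.6% lower, against 1 of 10. In all, 9 of 10 estimates were above 0, against 48.6% of all listed genes, with medians of 0.29 for the subunits and 0.30 for the IκB genes and of -0.010 for all listed genes. Both comparisons with TTP-AA use the same TTP-AA libraries, so their directions are not separate evidence. None of the 3 calls held with the Wald scores scaled by their central spread of 2.17, with adjusted p of 0.358 for Nfkb1, 0.856 for Nfkbib and 0.896 for Nfkbid. That scaling left 2.01% of all listed genes called.

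Of the subunits, Nfkb1 had the largest change between the 2 TTP forms. It was higher in TTP-AA by 0.50 ± 0.10 on the log2 scale, or 1.41-fold (DESeq2 adjusted p 7.53e-06), and ranked 727 among all listed genes by the size of its Wald score. The interval ran from 0.31 to 0.69. Chromosome 3 had a median of 0.09 in this comparison, which left 0.41 after its removal (adjusted p 0.000406).

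The other 4 subunits had estimates between 0.24 and 0.40 and did not pass the threshold. Rela had fitted levels of 1474, 1538 and 1489 in GFP, 1469, 1529 and 1485 in TTP and 1786, 1859 and 1806 in TTP-AA. The values of TTP-AA lay above the others, which restates the fitted group term, because the replicate numbers differed little in this gene under these library factors. The change against TTP was 0.29 ± 0.13 with an interval from 0.05 to 0.54 (DESeq2 adjusted p 0.0663). With the median of chromosome 19 (-0.11) removed it was 0.41 (adjusted p 0.00878), the sole member that came to pass the threshold under an alternative.

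Relb, a subunit that pairs mainly with the product of Nfkb2, had fitted levels of 831, 1174 and 1697 in GFP, 864, 1216 and 1763 in TTP and 1132, 1594 and 2312 in TTP-AA. The groups overlapped widely, since replicate 3 was higher than replicate 1 by 1.03 on the log2 scale in each line. Its change was 0.40 ± 0.23 for TTP-AA vs TTP (DESeq2 adjusted p 0.186). Nfkb2, which encodes the p100 precursor, had 0.26 ± 0.17 (adjusted p 0.247), and its exons share 299 bases with Psd and 531 with AC114539.1 on the other strand, which counting without strand could not separate. Rel (c-Rel), the subunit prominent in activated leukocytes, had 0.24 ± 0.18 (adjusted p 0.329), with an interval from -0.11 to 0.59.

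**Figure D3:**
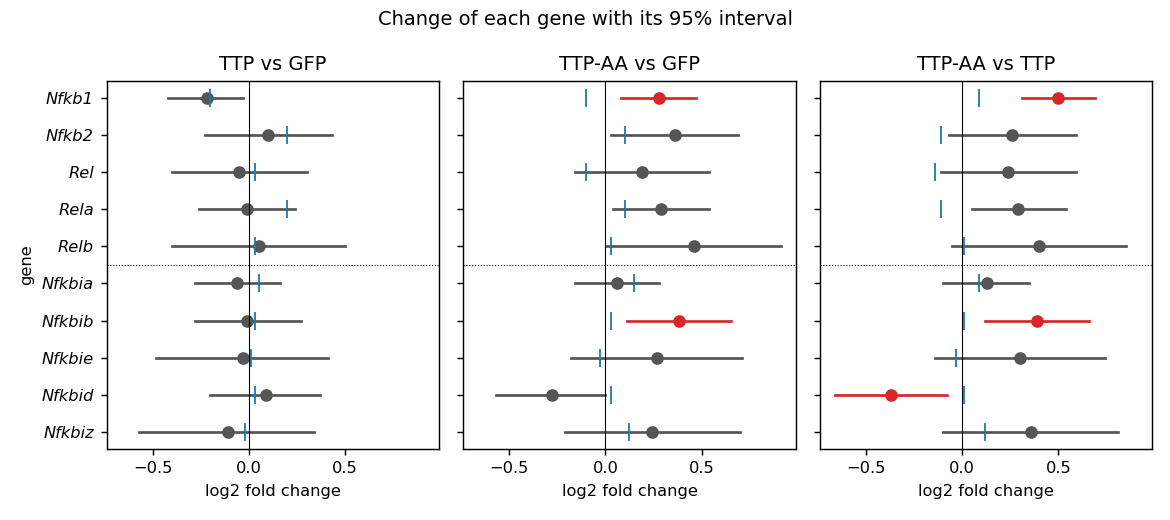
Log2 fold change of each gene (dots) with its 95% interval (bars) in TTP vs GFP, TTP-AA vs GFP and TTP-AA vs TTP, red where the adjusted p was under 0.05; blue ticks mark the median of all listed genes of its chromosome. No gene is red in TTP vs GFP, 2 are red in TTP-AA vs GFP and 3 in TTP-AA vs TTP, with Nfkbid alone below 0 in both comparisons with TTP-AA.

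Among the cytoplasmic inhibitors, Nfkbib rose in TTP-AA. IκBβ, its product, is degraded and restored more slowly than IκBα. The fitted levels were 531, 672 and 852 in GFP, 529, 667 and 848 in TTP and 687, 867 and 1103 in TTP-AA. GFP and TTP nearly coincided at each replicate number and TTP-AA was above both. The change was 0.39 ± 0.14 for TTP-AA vs TTP, or 1.31-fold (DESeq2 adjusted p 0.0218). Exons of Nfkbib (chromosome 7, 28758251 to 28767512) share 314 bases with Ccer2 and 42 with Sirt2 on the other strand, and no source states whether the counting used strand.

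Nfkbia, the classical feedback inhibitor, was the most abundant of the family. It had fitted levels of 28419, 34792 and 23494 in GFP, 27262, 33272 and 22538 in TTP and 29457, 35966 and 24376 in TTP-AA. The lines overlapped almost fully, and at each replicate number they lay within 1.09-fold of each other. The change was 0.13 ± 0.11 for TTP-AA vs TTP, with an interval from -0.10 to 0.35 (DESeq2 adjusted p 0.443), and 0.06 ± 0.11 against GFP. In the latter the genes of chromosome 12 had a median of 0.15, without which Nfkbia was at -0.09. Nfkbie, a further NF-κB target that encodes a cytoplasmic inhibitor, had 0.30 ± 0.23 for TTP-AA vs TTP (adjusted p 0.342).

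The nuclear IκB genes had estimates on opposite sides of 0. Nfkbid had fitted levels of 3111, 4135 and 2585 in GFP, 3306, 4381 and 2748 in TTP and 2534, 3360 and 2108 in TTP-AA. TTP-AA was the lowest at each replicate number, and the groups overlapped across numbers. Nfkbid fell by 0.37 ± 0.15 on the log2 scale in TTP-AA against TTP (DESeq2 adjusted p 0.0421), and was the sole member with an estimate below 0. Against GFP it had -0.28 ± 0.15 (adjusted p 0.177). Nfkbiz, a strongly LPS-induced coactivator of secondary response genes, had 14718, 17745 and 20460 in GFP, 13633, 16386 and 18952 in TTP and 17300, 20803 and 24074 in TTP-AA. Its estimate was 0.36 ± 0.23 for TTP-AA vs TTP (adjusted p 0.26), next to a median of 0.12 on chromosome 16.

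A test of any difference among the 3 groups, with both changes against GFP in a Wald test and adjustment over 11977 genes, called Nfkb1 (adjusted p 3.12e-05) and Nfkbib (adjusted p 0.0211). That is 2 of 10, where 33.1% of all genes were called. Rela and Nfkbid missed the threshold with adjusted p of 0.0784 and 0.0795, and the other 6 had adjusted p from 0.172 to 0.664. With chromosome medians removed Rela was called as well, where 28.3% of all genes were. With the scores scaled by their centre no member was called, where 3.85% of all genes were.

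The term for replicate number, which had the partition of the library dates in the authors' model, gave a wider range than the groups did in most of the family. For 8 of the 10 genes the range between replicate numbers exceeded that between groups, as it did for 63.2% of the 6380 genes with a mean of at least 1000. Rel had the widest, 1.30 on the log2 scale, and replicate 2 was its lowest. Of these abundant genes 0.972% ranged wider, but Rel itself, with a mean of 950, and Nfkbib, with 750, are not among them. Nfkb2, Relb and Nfkbie ranged over 1.04, 1.03 and 0.93, with replicate 3 the highest in each, and 2.38%, 2.45% and 3.42% of the abundant genes ranged wider. Nfkbia and Nfkbid went the other way, with replicate 3 lower than replicate 1 by 0.27 in both. Rela ranged over 0.06, and 97.1% of the abundant genes ranged wider. With library factors fitted to the mean counts instead, which lowers replicate 3 against replicate 1 by the same amount in every gene, Rela ranged over 0.17, and 80.3% of the abundant genes ranged wider. Under those factors Rel ranged over 1.18, Nfkb2 over 0.91, Relb over 0.90 and Nfkbie over 0.80, and 8 of the 10 genes again had the wider range between replicate numbers. The median of the abundant genes was 0.29 between replicate numbers and 0.22 between groups.

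**Figure D4:**
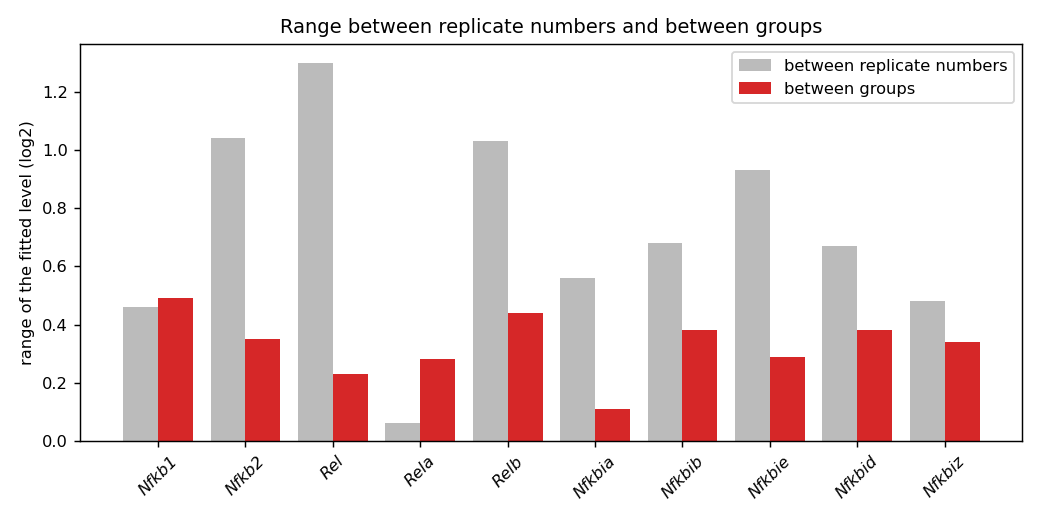
Range of the fitted level on the log2 scale between the 3 replicate numbers (grey) and between the 3 groups (red), for each gene. Grey exceeds red in 8 of 10 genes, most in Rel at 1.30 against 0.23, while Nfkb1 and Rela have the wider range between groups.

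The standard errors of Nfkbiz, Relb and Nfkbie were near the upper end for all genes. For TTP-AA vs TTP they came to 99.2%, 98.2% and 96.5% of the largest standard error of any listed gene, 0.235, and exceeded those of 99.6%, 99.4% and 99.1% of the abundant genes. Nfkbiz has a mean count of 18704, above that of 98.3% of listed genes. Nfkb1, with 42% of the largest error, sat in the middle of the abundant genes.

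The rest of the pathway was described by 5 lists with 70 genes, of which 69 were listed for TTP vs GFP and 70 for the other comparisons. For TTP vs GFP 2.9% were called, Traf4 higher and Tbk1 lower in TTP. For TTP-AA vs GFP 14 of 70 were called (20%), 11 higher and 3 lower, and for TTP-AA vs TTP 23 of 70 (32.9%), 17 higher and 6 lower. These shares stand beside 9.16%, 17.9% and 28.6% of all listed genes. The median change was -0.04, 0.08 and 0.11. With the scores scaled by their central spread 1, 0 and 0 were called, next to 2.06%, 1.49% and 2.01% of all listed genes.

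Of the kinases, the core of the IKK complex did not pass the threshold in any comparison. For TTP-AA vs TTP, Chuk (IKKα) had -0.14 ± 0.10, Ikbkb (IKKβ) had 0.19 ± 0.09 and Ikbkg (NEMO), the scaffold, had -0.02 ± 0.11, with adjusted p of 0.331, 0.108 and 0.908. Ikbke, which encodes the related kinase IKKε, rose by 0.51 ± 0.15 (DESeq2 adjusted p 0.00429). In this list 3 genes rose and 1 fell of 11 for TTP-AA vs TTP, and among the adaptors 5 rose and 2 fell of 17. Of all listed genes 14.0% were called higher and 14.6% lower in that comparison, and the lists were not tested against these shares. Traf1, an adaptor induced by NF-κB, rose by 0.68 ± 0.23 and Birc3 (cIAP2), a ubiquitin ligase, by 0.65 ± 0.23 (adjusted p 0.0178 and 0.0195). Traf4 fell by 0.87 ± 0.13 in TTP-AA against TTP (adjusted p 1.33e-09) and was the gene higher in TTP than in GFP, by 0.65 ± 0.13 (adjusted p 2.75e-05).

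The brakes on the pathway had 1 gene of 14 called for TTP-AA vs TTP, next to 28.6% of all listed genes, and 3 of 14 for TTP-AA vs GFP, next to 17.9%. Tnip3, which encodes a partner of the deubiquitinating enzyme A20, rose by 0.68 ± 0.22 in TTP-AA against TTP (DESeq2 adjusted p 0.0105). Tnfaip3, the gene of A20 itself, had 0.35 ± 0.18 (adjusted p 0.142). Of 10 nuclear partners 3 rose and 1 fell in TTP-AA against TTP, next to 14.0% and 14.6% of all listed genes. The list was not tested against these shares. Bcl3, an IκB family protein that coactivates p50 and p52 homodimers and was not among the members followed here, rose by 0.77 ± 0.20 against TTP and by 0.72 ± 0.20 against GFP (adjusted p 0.000946 and 0.00346). Crebbp, a histone acetyltransferase, rose by 0.53 ± 0.14 against TTP (adjusted p 0.00158).

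Of 18 textbook targets 5 rose and 2 fell in TTP-AA against TTP, next to 14.0% and 14.6% of all listed genes, and the list was not tested against these shares. Cd40, a costimulatory receptor, rose by 0.86 ± 0.22, Gadd45b by 0.67 ± 0.17 and Cd83 by 0.63 ± 0.20 (DESeq2 adjusted p 0.000842, 0.000798 and 0.00724). Ier3, an immediate early gene that limits NF-κB activity, fell by 0.91 ± 0.16 (adjusted p 2.92e-07). The median of the list was 0.22. Against this, the estimates for Tnf and Icam1 were 0.08 and 0.18 and did not pass the threshold.

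**Figure D5:**
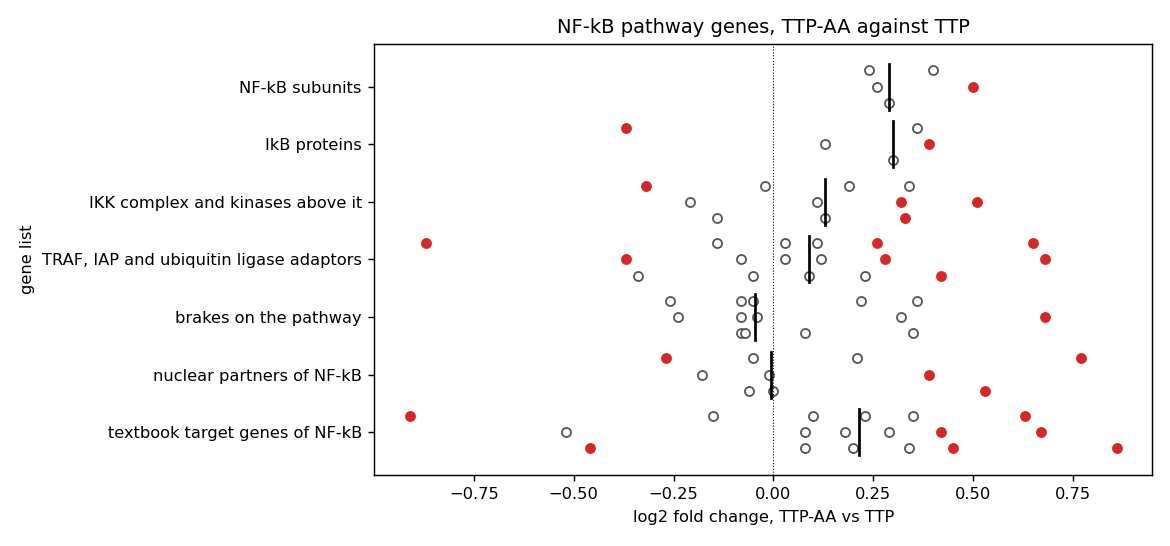
Log2 fold change of the NF-κB subunits, the IκB genes and the 5 other pathway lists for TTP-AA vs TTP, filled red where the adjusted p was under 0.05, with a black line at the median of each list. Every list has genes on both sides of 0 except the subunits, whose 5 genes lie between 0.24 and 0.50.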

How the data were processed

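Ribosome-depleted total RNA was sequenced in 3 libraries per group. The submitters' processing notes name Trim Galore, TopHat2 2.0.12, HTSeq, DESeq2 1.6.3 and GRCm38, whereas the study's methods give an earlier TopHat version. Per those methods the terms of the authors' DESeq2 model were library date and condition. Strand use in counting is not given in the sources used here, and multiply placed reads were allowed within a limit.

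The library table deposited by the authors as normalized counts holds a signal with 0 values of 0 and 4 nonzero singular values where free libraries would allow 8, that is, fitted means with no scatter. No test could be fitted to it, so changes and errors are from the authors' deposited comparison tables: the log2 fold change and its standard error, the Wald score (their quotient), the p-value and its adjusted value. Using the authors' own comparison columns departs from the usual practice of testing library values. The deposited log2 changes behave as shrunken: the 7732 genes with a fitted mean under 1 changed by at most 0.14 for TTP vs GFP, against 3.70 over all genes. Repeated identifiers (3 per table) were counted once. Columns of other samples numbered 0.

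Computed here, with Python 3.11.15, numpy 2.4.6, pandas 2.3.3, scipy 1.17.1 and matplotlib 3.10.9, were library factors (median ratios), the test among 3 groups (covariance from the 3 standard errors, Benjamini-Hochberg adjustment, tested on simulated data), 95% intervals (1.96 standard errors) and the alternatives. Tests were two-sided at an adjusted p of 0.05. Positions and 3'UTRs are from GENCODE vM21 on GRCm38, a later annotation than the authors'. The members and lists were chosen with earlier results of these data known. Besides the members, a pathway gene was named where its adjusted p was under 0.05 and its absolute log2 change at least 0.5 for TTP-AA vs TTP, and Tnfaip3, Bcl3, Chuk, Ikbkb and Ikbkg were named whatever their values. Tnf, Icam1, Tbk1 and the genes named in the closing section fall outside this rule and were chosen after their values were seen.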

Additional observations from a re-analysis of the deposited data

Results flagged for a closer look

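For 3 of 10 members the change against GFP differed between TTP-AA and TTP, as tested by the deposited comparison of TTP-AA with TTP with DESeq2 adjusted p over all listed genes. These are the calls of that comparison given above, where 28.6% of all listed genes were called. None of them held with scaled scores. The difference was 0.50 on the log2 scale for Nfkb1, where TTP had -0.22 and TTP-AA 0.28 against GFP. It was 0.39 for Nfkbib, where TTP had -0.01 and TTP-AA 0.38. It was -0.37 for Nfkbid, where TTP had 0.09 and TTP-AA -0.28. At each replicate number the fitted level of TTP-AA was above that of TTP for Nfkb1 and Nfkbib and below it for Nfkbid, which the form of the fitted table imposes on all replicate numbers at once.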

How the results depend on the processing

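For TTP vs GFP, 0 members were called in the deposited test and under each of the 7 alternatives run. Of all listed genes 9.16% were called in that test, and 2.06% to 9.32% under the alternatives. For TTP-AA vs GFP, 2 members became 0 with Wald scores divided by their central spread, 1 with chromosome medians removed, 1 with the GC and length trend removed and 0 at an adjusted p under 0.01. Of all listed genes these settings called 1.49%, 16.1%, 17.6% and 10.6%, and the deposited test 17.9%. For TTP-AA vs TTP, 3 became 0 with scaled scores, 4 with chromosome medians removed and 1, Nfkb1, at an adjusted p under 0.01. The shares of all listed genes were 2.01%, 25.9% and 19.1%, next to 28.6% in the deposited test. Among the 3 groups, 2 became 0 with scaled scores and 3 with chromosome medians removed. These settings called 3.85% and 28.3% of all genes, next to 33.1% in the main test. The other pathway genes called fell with scaled scores from 2, 14 and 23 to 1, 0 and 0. Scaled scores called 2.06%, 1.49% and 2.01% of all listed genes in the same comparisons. Signs turned in 2 of 210 single values, both with chromosome medians removed and neither called: Nfkb2 for TTP vs GFP to -0.11 and Nfkbia for TTP-AA vs GFP to -0.09. Of the rest, 196 kept their sign and side of the threshold, 11 lost the call and 1 gained it. For Nfkbid in TTP-AA vs TTP, the adjusted p at the threshold of 0.05 ran from 0.0394 to 0.896. The cause was not tested. With library factors fitted to the mean counts no level of a member in a library moved by more than 0.08 on the log2 scale, but the difference of replicate 3 from replicate 1 changed by -0.13. No paired analysis was possible because fitted means carry no scatter, and the model that the authors fitted already had a term for replicate number. For the same reason the fit without the block, leaving out each library and limma with other pseudocounts were not run, so no call could be checked against the loss of a library. Read depth per library cannot be had from fitted values.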

Other observations

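Pathway genes beyond those described were called against GFP in TTP-AA, where 17.9% of all listed genes were called. None of the 14 pathway genes called in this comparison held with scaled scores, which called 1.49% of all listed genes. Ripk1, a kinase scaffold of TNF receptor signalling, and the adaptors Traf2 and Traf3 were higher by 0.32, 0.35 and 0.33 on the log2 scale (DESeq2 adjusted p 0.00944, 0.0188 and 0.00415). Tnip1 and N4bp1, brakes on the pathway, were higher by 0.56 and 0.44 (adjusted p 0.00578 and 0.0181), whereas Nkiras2, an IκB-interacting protein of the Ras family, and Nkap were at -0.32 and -0.39 (adjusted p 0.00646 and 0.00194). Sod2, a mitochondrial superoxide dismutase, was higher by 0.52 and Zc3h12a, an RNase that degrades inflammatory mRNAs, by 0.33 (adjusted p 0.0121 and 0.0352).

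The summed fitted level of the IκB genes over that of the subunit genes, without regard to length, was 5.23, 6.05 and 3.56 in GFP replicates 1 to 3, 5.32, 6.11 and 3.56 in TTP and 4.58, 5.25 and 3.16 in TTP-AA. Most of the IκB sum was Nfkbia and Nfkbiz, at 28419 and 14718 of 47726 in GFP replicate 1. At each replicate number TTP-AA was the lowest, and the groups overlapped across numbers. The fitted table holds each gene's ratio between groups equal at all replicate numbers, so the repeated order is not separate evidence. The ratio was not tested. Per kilobase, Nfkbia exceeded Rela 33.2-fold, 38.9-fold and 27.2-fold in GFP, 31.9-fold, 37.5-fold and 26.1-fold in TTP and 28.4-fold, 33.3-fold and 23.2-fold in TTP-AA.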
